A study of Mus musculus with 24 samples.

Results

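The genes described here are 7 of the genes that encode subunits of the GABA-A receptor: Gabra2, Gabra4, Gabra5, Gabrb1, Gabrb2, Gabrg1 and Gabrd. They were taken as a list of names, 7 of 52636 genes counted, and all 7 passed the filter on low counts in all 5 comparisons. RNA-seq was performed on the nucleus accumbens (NAc), a ventral striatal region of the reward system, of 24 C57BL/6 mice (C57BL/6J in the study's methods) killed at 50 days of age and never given cocaine, with 1 library for the bilateral tissue of each animal. There were 6 control (Con) females, 6 females exposed as pups to MSUS, in which separation from the dam is paired with unpredictable stress of the dam, 6 Con males and 6 MSUS males. MSUS litters were stressed daily from postnatal day 1 to 14, and Con litters received no stress. The labels do not give litters, so that p-values measure the spread between animals, some of which may share a dam. By the study's methods, each female group held as many high-estrogenic as low-estrogenic animals, and its female model included the stage of the estrous cycle. The stage was not used here, since the labels give stages to some males and leave some females without a stage.

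The libraries held between 39923666 and 70575745 sense-strand counts (median 53316153.5), every library matched its sex label, and no pair of libraries was a copy. Markers of the labelled tissue were looked up: 7 of 7 medium spiny neuron markers were above 0 in every library, with a summed level between 2351 and 5311 CPM (counts scaled to the same total in each library). All 66 markers of 11 cell types were above 0 in every library, so that being above 0 does not identify the tissue. The 10 markers of cortical excitatory neurons, a cell type of the tissue around the NAc, were also above 0 in every library, and their summed level ranged from 132 to 1625 CPM. The share of uniquely mapped read pairs that STAR assigned to no gene lay between 36.3 and 43.9% in MSUS females and between 31.0 and 34.8% in Con females, without overlap (exact permutation test, two-sided, p = 0.00216, the smallest that 6 against 6 allows, adjusted p = 0.0563 over 26 library measures). In males the shares overlapped (means of 37.2% in MSUS and 38.0% in Con, exact permutation test, p = 0.684).

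GABA-A receptors are chloride channels that open when GABA, the main inhibitory transmitter of the brain, binds between an α and a β subunit. Most receptors combine α and β subunits with a γ subunit, which places them at synapses, whereas a δ subunit takes the place of γ in receptors outside synapses that respond to low ambient GABA and to neurosteroids. Medium spiny neurons, the principal cells of the NAc, both release GABA and receive it, and α2 is a main synaptic subunit and α4 with δ a main extrasynaptic combination in these cells.

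The genes for α2, α4, β1 and γ1 lie in a cluster on mouse chromosome 5 (GRCm38). In the GENCODE M21 annotation Gabrg1 (ENSMUSG00000001260.10) spans 70751047 to 70842617, Gabra2 (ENSMUSG00000000560.9) spans 70957597 to 71095849 and Gabra4 (ENSMUSG00000029211.11) spans 71569749 to 71658308, all on the minus strand. Gabrb1 (ENSMUSG00000029212.11) spans 71658113 to 72149037 on the plus strand, so that Gabra4 and Gabrb1 start head to head and overlap by 196 bases. The other members are apart: Gabra5 (ENSMUSG00000055078.7) on chromosome 7, 57407672 to 57510059, Gabrb2 (ENSMUSG00000007653.12) on chromosome 11, 42419757 to 42629028, and Gabrd (ENSMUSG00000029054.8) on chromosome 4, 155384980 to 155398112. Antisense counts over the exons of Gabra5 were at most 5.69% of its counts, against at most 1.10% for every other member.

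The promoters of the 4 clustered genes, for Gabrb1 that of the start nearest Gabra4, are shown because the cluster holds both genes that passed the threshold in females and the gene with the highest fold change. Each window runs from 250 bases before to 50 bases after a RefSeq transcription start (GRCm38.p6), is printed 5′ to 3′ on the strand of its gene, and has in capitals the GC box (GGGCGG) and the Klf box (CCACCC), searched on both strands.
Gabrg1 (chr5:70842568-70842867, minus strand): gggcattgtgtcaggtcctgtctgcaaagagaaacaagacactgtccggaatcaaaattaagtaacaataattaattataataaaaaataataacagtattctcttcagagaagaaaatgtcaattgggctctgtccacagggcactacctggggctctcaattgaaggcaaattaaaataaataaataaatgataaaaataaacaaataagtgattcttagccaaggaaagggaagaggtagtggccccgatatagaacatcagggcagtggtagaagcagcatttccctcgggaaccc
Gabra2 (chr5:71095800-71096099, minus strand): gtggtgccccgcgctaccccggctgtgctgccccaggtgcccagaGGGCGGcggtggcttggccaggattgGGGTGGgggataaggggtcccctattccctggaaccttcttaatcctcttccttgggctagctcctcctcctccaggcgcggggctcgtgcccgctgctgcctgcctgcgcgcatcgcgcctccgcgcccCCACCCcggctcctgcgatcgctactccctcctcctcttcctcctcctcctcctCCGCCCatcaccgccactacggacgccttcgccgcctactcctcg
Gabra4 (chr5:71658259-71658558, minus strand): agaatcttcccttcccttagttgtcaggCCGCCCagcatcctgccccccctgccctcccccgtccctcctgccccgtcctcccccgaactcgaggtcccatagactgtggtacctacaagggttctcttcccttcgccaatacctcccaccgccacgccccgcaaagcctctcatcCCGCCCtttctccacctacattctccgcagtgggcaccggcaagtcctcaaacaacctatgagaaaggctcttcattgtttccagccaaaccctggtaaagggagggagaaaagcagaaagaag
Gabrb1 (chr5:71657671-71657970, plus strand): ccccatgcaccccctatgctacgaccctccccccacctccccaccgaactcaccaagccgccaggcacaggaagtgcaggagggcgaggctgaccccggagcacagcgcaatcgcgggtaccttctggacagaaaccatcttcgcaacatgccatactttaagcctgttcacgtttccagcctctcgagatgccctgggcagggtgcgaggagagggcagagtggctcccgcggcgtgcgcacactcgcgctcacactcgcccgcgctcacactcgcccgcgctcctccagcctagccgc
Although the genes are neighbours, the GC content of these windows differed: 38.3% for Gabrg1, 70% for Gabra2, 58.7% for Gabra4 and 66.0% for Gabrb1, against a median of 52.7% over 32851 mouse promoters of the same length. Gabra2 held 2 GC boxes and 2 Klf boxes, Gabra4 held 2 GC boxes, and the Gabrg1 and Gabrb1 windows held no match to these motifs. A GC box occurred in 35.7% and a Klf box in 31.5% of all windows. Of the other motifs searched, the core of the Yy1 site (CCATNTT, in 16.1% of all windows) occurred once in the Gabrb1 window. The AP-1 site (TGANTCA, 7.81%), the cAMP response element (TGACGTCA, 1.79%), the palindromic estrogen response element (0.0700%) and the TATA box (TATAAA, 13.6%) had no match in the 4 windows.

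Levels were compared between genes in TPM, which divides counts by the length of a gene's exons and scales each library to the same total. Over the 24 animals Gabrb2, a β subunit gene, had the highest mean TPM at 113 ± 11.6 (SD, n = 24). Gabrd followed at 94.4 ± 12.7 TPM and Gabra4 at 92.2 ± 11.6 TPM, which is the pair of an extrasynaptic receptor, and Gabrd was above Gabra4 in 13 of 24 libraries. Gabrb1 lay at 70.7 ± 5.93 TPM and was below Gabra4 in every library. Gabra5, an α subunit of tonic inhibition outside synapses, and Gabra2 lay close together at 46.9 ± 6.53 and 43.4 ± 6.14 TPM, with Gabra5 above in 12 of 24 libraries. Gabrg1, a γ subunit of restricted expression, was lowest at 16.99 ± 4.41 TPM, and it is the only member whose range (8.13 to 25.6 TPM) did not meet that of its neighbour in the order. The order of the group means was the same in 3 of 4 groups. With the length of the longest transcript in place of all exons Gabra4 (112 TPM) passed Gabrd (81.9 TPM) and Gabra2 (46.3 TPM) passed Gabra5 (42.7 TPM), so that the order within these pairs rests on the gene length used.

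**Figure D1:**
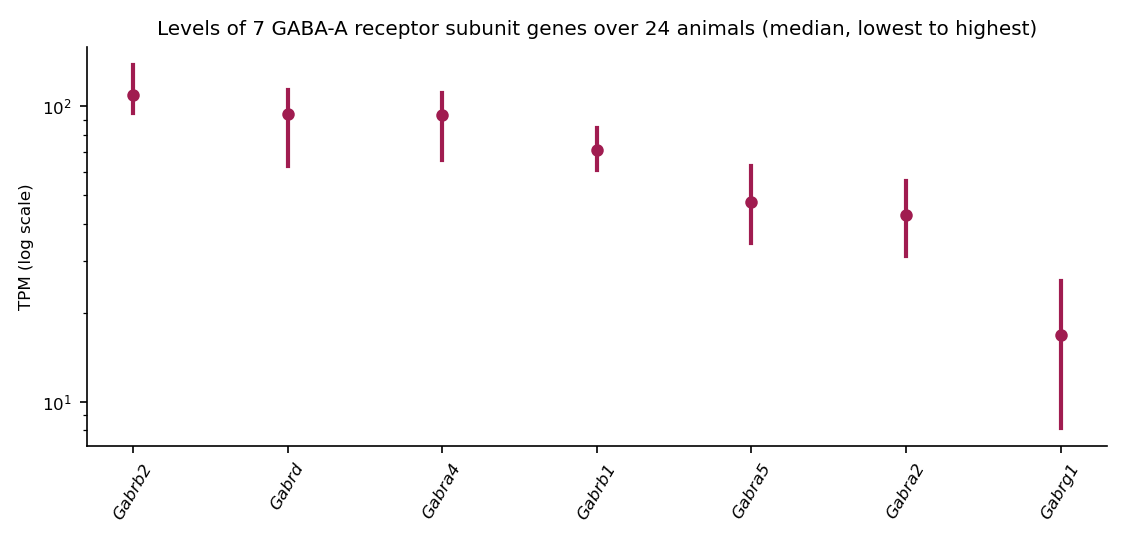
TPM on a log scale of the 7 subunit genes over all 24 animals. Points are medians and lines run from the lowest to the highest animal. The line of Gabrg1 (8.13 to 25.6 TPM) lies below the lines of the other members.

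In the wider family Gabra3 (64.7 TPM) and Gabrg3 (42.7 TPM) lay within the range of the 7 genes. Gabra6, Gabrp, Gabrr1 and Gabrr3 were at or near 0, with at most 10 counts in any library. Counts of the 7 genes ran from 940 (Gabrg1, lowest library) to 16906 (Gabrb1, highest library). Counting error at each gene's lowest count was between 0.929% (Gabrb1) and 3.26% (Gabrg1) of it.

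The comparison of MSUS with Con females asks whether early-life stress left a difference in these genes in the female NAc at 50 days of age. Of the 7 members 2 passed an adjusted p of 0.10 in edgeR's quasi-likelihood test, Gabra2 and Gabrb1, and both were higher in MSUS females. In this comparison 25.1% of the 20571 genes tested passed the threshold, 13.1% as higher and 11.9% as lower, so that 2 of 7 is a share near the background. The median log2 fold change of the 7 members was 0.13, against -0.0027 over all genes tested, and 4 of 7 were above 0, as were 49.4% of all genes. In these bulk samples more cells of a type and more RNA per cell cannot be told apart.

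Among the α subunits, Gabra2 is a main synaptic one. In Con females Gabra2 ran from 3345 to 4645 normalized counts, with a median of 4304, and in MSUS females from 4895 to 5434, with a median of 5148. Every MSUS female was above every Con female, and the MSUS animals lay closer together. It differed by a log2 fold change of 0.31 (SE 0.064, 95% interval 0.17 to 0.44), or 1.24-fold, with an adjusted p of 0.00987 in edgeR's quasi-likelihood test. Groups that do not overlap, with MSUS higher, were found for 3.81% of all genes tested. Leaving out each animal in turn gave log2 fold changes between 0.25 and 0.33 and adjusted p-values between 0.0071 and 0.0273 for Gabra2 in edgeR's quasi-likelihood test.

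In Con females Gabra4 ran from 5751 to 9032 normalized counts, with a median of 8342, and in MSUS females from 7791 to 9043, with a median of 8816. The groups overlapped, and 2 Con females lay below every MSUS female. The log2 fold change of 0.14 (SE 0.097, 95% interval -0.073 to 0.35) did not pass (adjusted p = 0.344, edgeR's quasi-likelihood test).

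In Con females Gabra5 ran from 1537 to 2362 normalized counts, with a median of 2157, and in MSUS females from 1755 to 2143, with a median of 1882. The MSUS females, 6 of 6, were under the median of the Con group but within its range. The log2 fold change was -0.10 (SE 0.10, 95% interval -0.32 to 0.12) with an adjusted p of 0.510 in edgeR's quasi-likelihood test.

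Of the β subunits, Gabrb1 belongs to the cluster. In Con females Gabrb1 ran from 12233 to 14688 normalized counts, with a median of 12903, and in MSUS females from 13656 to 15614, with a median of 14214. The groups overlapped, since 2 Con females reached the MSUS range, yet 6 of 6 MSUS females were above the Con median. MSUS exceeded Con by 0.13 on the log2 scale (SE 0.049, 95% interval 0.023 to 0.23), a 1.09-fold difference, with an adjusted p of 0.0888 in edgeR's quasi-likelihood test. That call did not hold at an adjusted p of 0.05 and was lost in 9 of the 12 fits that left out 1 female (adjusted p between 0.0327 and 0.184, edgeR's quasi-likelihood test).

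In Con females Gabrb2 ran from 9436 to 12115 normalized counts, with a median of 10102, and in MSUS females from 8735 to 10644, with a median of 9691. The highest value came from Con female 3, and 2 MSUS females lay below every Con female. For Gabrb2 the log2 fold change was -0.10 (SE 0.063, 95% interval -0.24 to 0.035), which did not pass (adjusted p = 0.281, edgeR's quasi-likelihood test).

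In Con females Gabrg1 ran from 901 to 1983 normalized counts, with a median of 1577, and in MSUS females from 1842 to 2861, with a median of 2031. All 6 MSUS females were above the Con median and 3 were above every Con female, and both groups spread widely. The log2 fold change of 0.44 (SE 0.18, 95% interval 0.059 to 0.82), a 1.36-fold difference, was the highest of the 7 but missed the threshold with an adjusted p of 0.105 in edgeR's quasi-likelihood test. It passed with DESeq2 (adjusted p = 0.0517) and when at least 10 counts were required in every library (adjusted p = 0.0957, edgeR's quasi-likelihood test).

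In Con females Gabrd ran from 2602 to 4821 normalized counts, with a median of 4161, and in MSUS females from 3473 to 4414, with a median of 3924. The MSUS animals lay inside the range of the Con animals. The log2 fold change was -0.034 (SE 0.12, 95% interval -0.30 to 0.23), with an adjusted p of 0.873 in edgeR's quasi-likelihood test, and the interval still holds differences of the size seen for Gabra4.

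**Figure D2:**
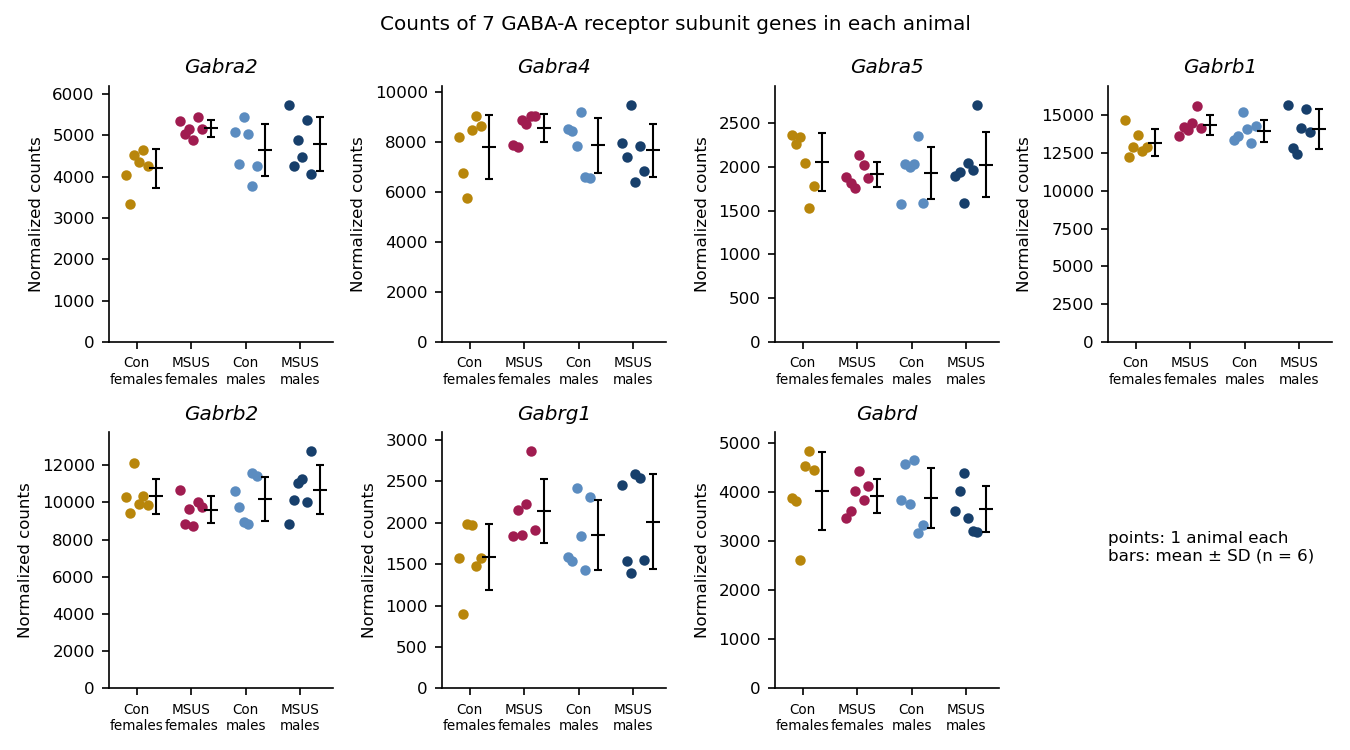
Normalized counts of the 7 subunit genes in each animal, by group, on axes that start at 0. Points are animals and bars are the mean ± SD (n = 6). For Gabra2 the MSUS females (4895 to 5434) sit above all Con females (3345 to 4645), and the male groups overlap in every panel.

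The 4 genes with a log2 fold change above 0 in females were the 4 genes of the chromosome 5 cluster, and Gabra5, Gabrb2 and Gabrd were below 0. The clustered genes also share features of sequence. In their longest transcripts GC content was 35.3% (Gabrg1), 38.4% (Gabra2), 40.9% (Gabrb1) and 42.2% (Gabra4). The median over the genes tested was 48.8%. Exon lengths of the clustered genes were 6083 to 13838 bases, against a median of 3539. These features are not limited to the cluster, since Gabrb2 lay on the same side of both medians (44.0%, 6360 bases). Gabra5 did so for GC content only (47.1%, 2974 bases) and Gabrd for neither (54.7%, 2875 bases). When GC content and gene length entered as offsets, the log2 fold changes became 0.10 for Gabra2 (adjusted p = 0.197), 0.02 for Gabrb1 (adjusted p = 0.817) and 0.10 for Gabrg1 (edgeR's quasi-likelihood test), so that none of the 7 genes passed and 3351 of all genes did.

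Of 26 library measures over both sexes none passed an adjusted p of 0.05 in exact permutation tests. Only the no-gene share separated the female groups, and some others had unlike means in them. The no-gene share of pairs was higher in MSUS females, without overlap, as given above, and with that share as a covariate no gene of 20571 passed, the log2 fold change of Gabra2 being 0.36 (adjusted p = 0.760, edgeR's quasi-likelihood test). In females this share and MSUS cannot be told apart. The summed level of the 10 cortical markers lay between 132 and 766 CPM in MSUS females and between 262 and 1625 CPM in Con females (exact permutation test, two-sided, p = 0.0649, adjusted p = 0.241), and none of the 10 was at 0. With the cortical marker score, the mean log2 CPM of these genes, as a covariate, Gabra2 kept its call with a log2 fold change of 0.27 (adjusted p = 0.0796), and the values were 0.08 for Gabrb1 (adjusted p = 0.503) and 0.24 for Gabrg1 (adjusted p = 0.567, edgeR's quasi-likelihood test). The summed levels of 7 astrocyte markers (5588 to 6162 CPM in MSUS and 5895 to 6201 CPM in Con females, exact permutation p = 0.0195, adjusted p = 0.197) and of 6 oligodendrocyte markers (3280 to 4025 and 3469 to 4965 CPM, exact permutation p = 0.0303, adjusted p = 0.197) had lower means in MSUS females, a difference that did not pass 0.05 after adjustment. Gene by gene, in edgeR's quasi-likelihood test at an adjusted p of 0.10, 4 of 6 oligodendrocyte markers (median log2 fold change -0.24), 3 of 7 astrocyte markers (median -0.11) and 2 of 10 cortical markers (median -1.82, 1 of 10 above 0) were lower and none was higher. Of 6 markers of GABAergic interneurons 2 were lower and 1 was higher (median -0.33), and no marker of the other 7 cell types passed. Over all genes tested 11.9% were called lower and 13.1% higher. The 7 medium spiny neuron markers overlapped (3966 to 5023 CPM in MSUS and 2351 to 5297 CPM in Con females, exact permutation p = 0.753). The part of these measures in the subunit differences was not tested beyond the covariate fits.

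**Figure D3:**
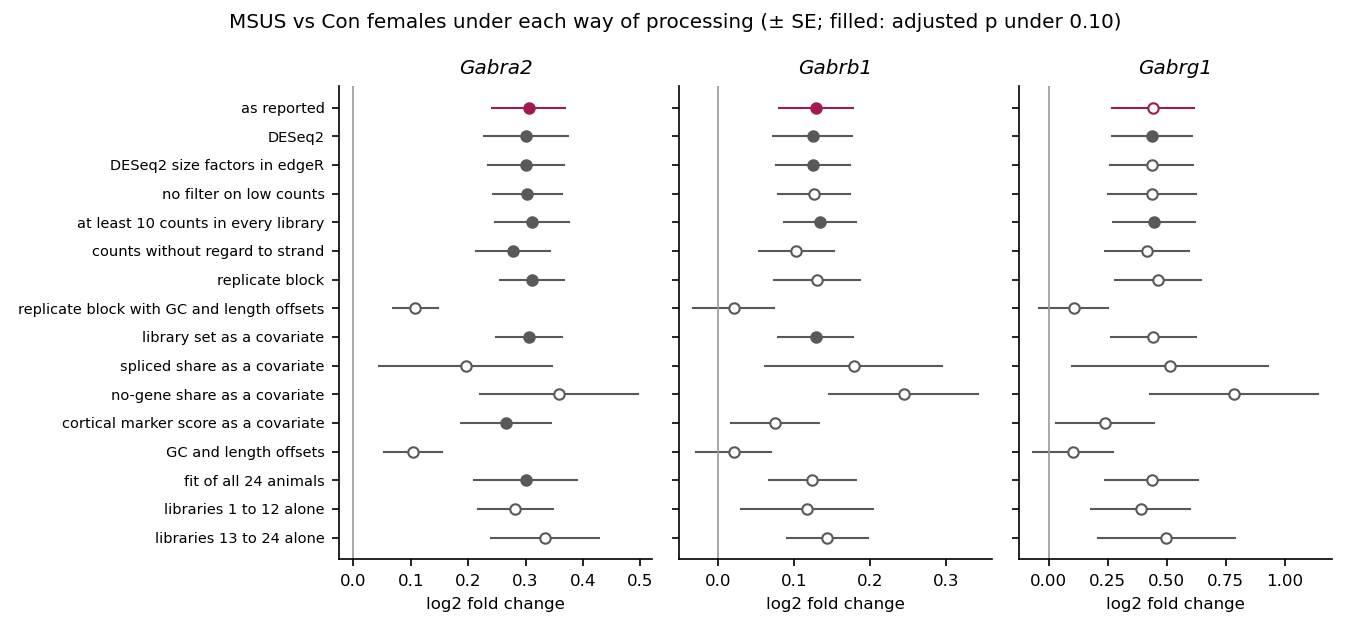
Log2 fold changes of Gabra2, Gabrb1 and Gabrg1 in MSUS against Con females as reported (red) and under each alternative (gray), with ± 1 SE. Filled points passed an adjusted p of 0.10. Gabra2 stayed filled except with offsets (0.10, and 0.11 with a replicate block), the spliced or no-gene share as a covariate (0.20 and 0.36) and within either library set (0.28 and 0.33).

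In males the same comparison gave no call. None of the 7 members and 0.0% of 20691 genes passed with edgeR's quasi-likelihood test or with DESeq2. An unadjusted p under 0.05 was found for 191 genes (0.923%, edgeR's quasi-likelihood test), none of them a member. Tests of genes without a difference give such a p in a share of 0.05 on average, which is more. In Con males Gabra2 ran from 3779 to 5454 normalized counts, with a median of 4666, and in MSUS males from 4061 to 5735, with a median of 4683. These ranges lay over each other almost entirely, and the log2 fold change was 0.043 (SE 0.10, 95% interval -0.18 to 0.27). In Con males Gabrg1 ran from 1426 to 2418 normalized counts, with a median of 1711, and in MSUS males from 1387 to 2591, with a median of 2007. In both male groups its animals fell apart widely, and its log2 fold change of 0.12 (SE 0.20, 95% interval -0.31 to 0.54) was the highest of the 7 in males too.

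Gabrb1 had a log2 fold change of 0.012 in males (95% interval -0.13 to 0.15), and its MSUS males ran from 12475 to 15692 normalized counts around Con males of 13139 to 15197. Gabra4 (-0.039, 95% interval -0.26 to 0.19), Gabra5 (0.064, -0.21 to 0.33), Gabrb2 (0.065, -0.13 to 0.26) and Gabrd (-0.090, -0.32 to 0.15) had log2 fold changes within their errors of 0, all with an adjusted p of 1 in edgeR's quasi-likelihood test.

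**Figure D4:**
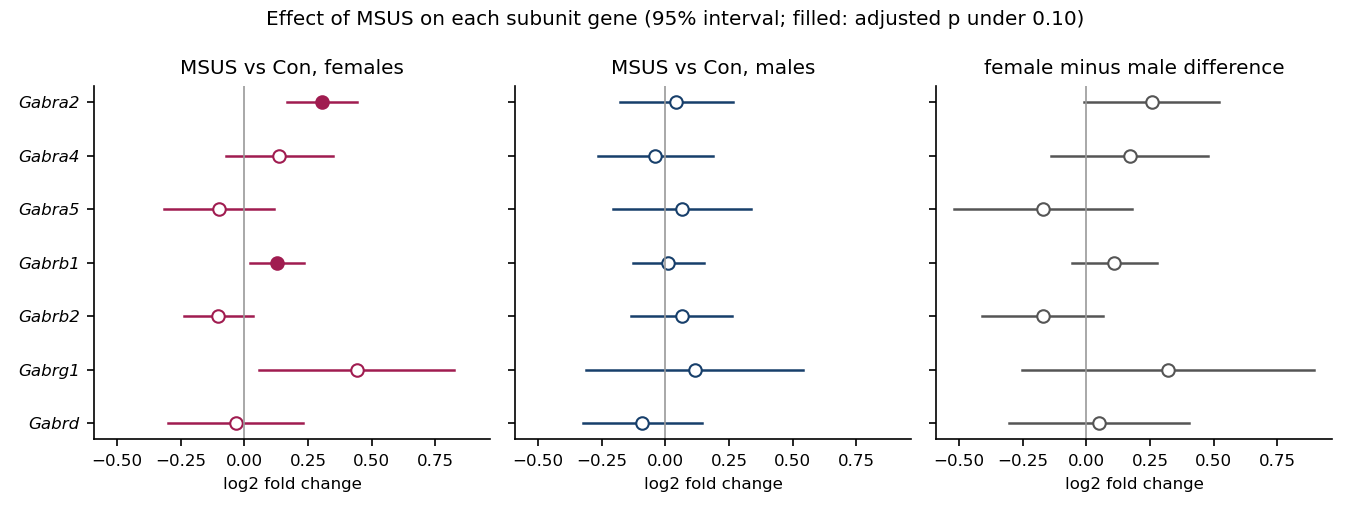
Log2 fold changes of MSUS against Con in females (left) and in males (middle), and their difference (right), with 95% intervals. Filled points passed an adjusted p of 0.10, which only Gabra2 (0.31) and Gabrb1 (0.13) in females did.

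The group-by-sex interaction asks whether the effect of MSUS differed between the sexes, and it was tested in all 24 animals. None of the 7 members and 0.0% of 21500 genes passed in edgeR's quasi-likelihood test, 4031 genes (18.7%) had an unadjusted p under 0.05, and DESeq2 called 408 genes, none of them a member. For Gabra2 the log2 fold change in females exceeded that in males by 0.26 (SE 0.13, 95% interval -0.0079 to 0.52, adjusted p = 0.278). The difference was 0.32 for Gabrg1 (SE 0.28), 0.17 for Gabra4 (SE 0.15), 0.11 for Gabrb1 (SE 0.081) and 0.051 for Gabrd (SE 0.17). It was -0.17 for Gabrb2 (SE 0.12) and -0.17 for Gabra5 (SE 0.17), and the adjusted p-values of these 6 genes lay between 0.403 and 0.887 in edgeR's quasi-likelihood test. A difference between the sexes in the effect of MSUS on Gabra2 or Gabrb1 was thus not shown.

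The sexes were compared within each group. Between Con females and Con males none of the 7 members passed, against 2.64% of 20641 genes tested. For Gabra2 the median normalized count was 4304 in the females and 4666 in the males, 6 of 6 females were below the male median, and the log2 fold change was -0.14 (SE 0.096, adjusted p = 0.459, edgeR's quasi-likelihood test). Gabrg1 had a log2 fold change of -0.22 (SE 0.19, adjusted p = 0.564, edgeR's quasi-likelihood test), and its Con females (901 to 1983) and Con males (1426 to 2418) overlapped. The direction of both turned when GC content and length entered as offsets, to 0.0012 and 0.030.

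Between MSUS females and MSUS males none of the 7 passed, against 0.135% of 20714 genes. Gabra4 had a log2 fold change of 0.16 (SE 0.083, unadjusted p = 0.0790, adjusted p = 0.667, edgeR's quasi-likelihood test), and 6 of 6 MSUS females were above the MSUS male median of 7630 normalized counts. Gabrb2 had a log2 fold change of -0.16 (SE 0.078, unadjusted p = 0.0653, adjusted p = 0.667, edgeR's quasi-likelihood test), with 1 of 6 MSUS females above the male median of 10604. The MSUS female values are shared with the comparison of MSUS and Con females, and neither gene passed there.

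As a description of subunit composition, each α subunit was expressed as a share of the summed TPM of all 6 α subunit genes. Gabra2 made up 10.9 ± 1.28% of α transcripts in the Con females, with a highest share of 12.3%, and 14.0 ± 0.617% in the MSUS females, with a highest share of 14.7%, and the groups did not overlap. Con males spanned 9.07 to 15.8% (median 12.4%), which covers both female groups. The α share of Gabra4 was 25.8 ± 5.61% in Con and 29.1 ± 2.67% in MSUS females (SD, n = 6), and that of Gabra5 13.7 ± 2.13% and 13.3 ± 1.29%. Of the γ and δ transcripts Gabrg1 made up 5.99 ± 1.39% in Con and 8.15 ± 1.44% in MSUS females, and Gabrd 41.7 ± 6.96% and 40.7 ± 3.28%.

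The members, in log2 CPM, were set against 2 measures of the libraries over the 24 animals, 14 relations in all, 5 of which had adjusted p-values under 0.05 for both Pearson's r and Spearman's rho. Gabra2 rose with the no-gene share of pairs (r = 0.75, rho = 0.78, permutation p = 2e-05 for both, adjusted p = 0.00028), and r was 0.71 without the 2 libraries farthest from the median share. Within groups r was 0.93 in Con males and 0.98 in MSUS males, but -0.39 in Con females and 0.17 in MSUS females, so that the relation held within the male groups and not within the female groups. No other member had a relation to that share with both adjusted p-values under 0.05.

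Gabrg1 fell with the cortical marker score (r = -0.69, rho = -0.69, permutation p = 0.00026 and 0.0004, adjusted p = 0.00182 and 0.0028), and r was -0.64 without the 2 farthest libraries. Its r was below 0 in 4 of 4 groups, between -0.32 and -0.90. Gabrb1 (r = -0.56 and rho = -0.60, permutation p = 0.0051 and 0.00271, adjusted p = 0.0195 and 0.0126) and Gabra2 (r = -0.55 and rho = -0.55, permutation p = 0.00557 and 0.00638, adjusted p = 0.0195 and 0.0223) fell with the score. Gabrb2 rose with it (r = 0.46 and rho = 0.48, permutation p = 0.0239 and 0.0184, adjusted p = 0.0478 and 0.0429), and each of the 3 had the same sign in 4 of 4 groups. Some of these r were near 0: for Gabra2 they lay between -0.058 (MSUS females) and -0.53 (Con males). For Gabrb1 they lay between -0.11 (Con females) and -0.82 (MSUS females), and for Gabrb2 between 0.21 (MSUS females) and 0.47 (Con females). Without the 2 farthest libraries r was -0.52 for Gabrb1, -0.47 for Gabra2 and 0.40 for Gabrb2. In females Gabra4 and Gabrd were lower where the score was higher, with r between -0.64 and -0.85 in the Con and MSUS groups, but over all 24 animals neither passed after adjustment. Levels of genes within a library share depth and normalization.

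**Figure D5:**
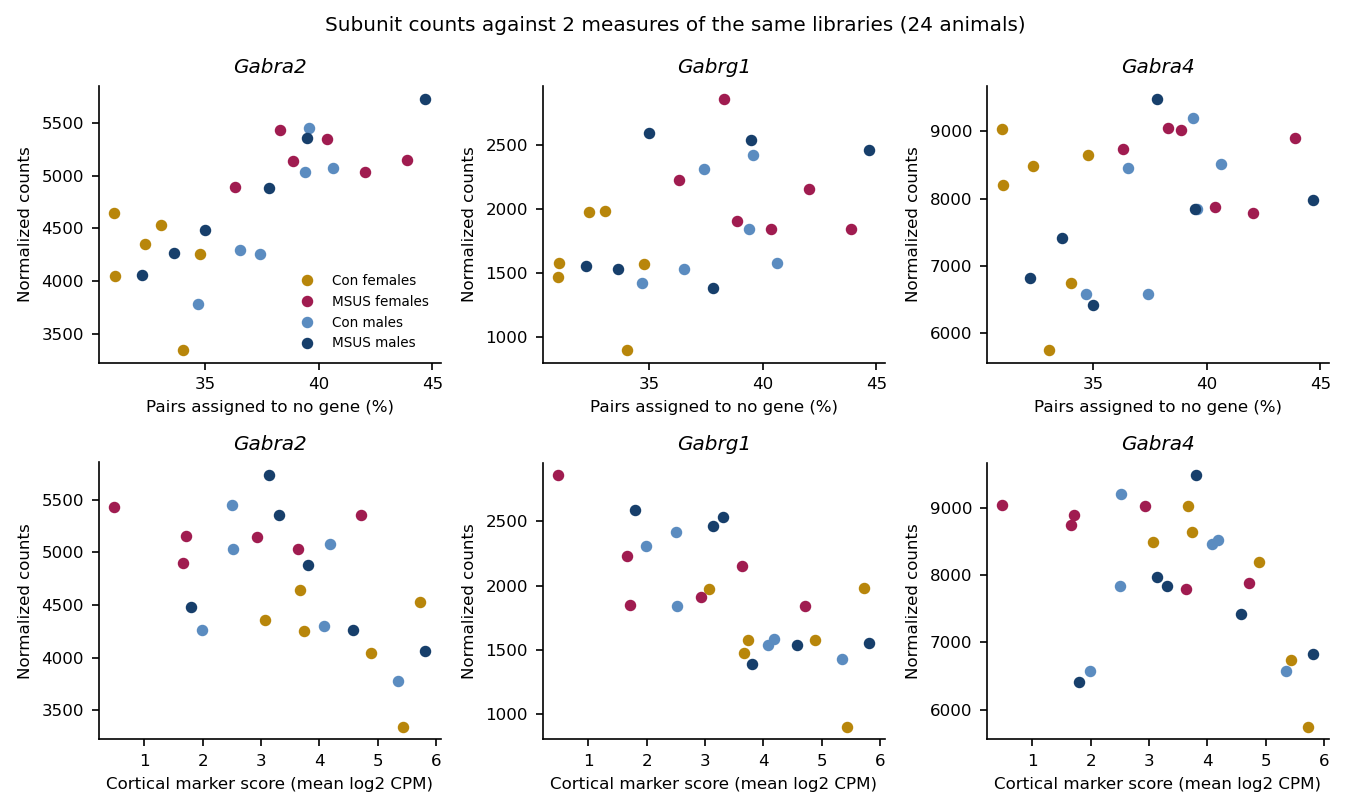
Normalized counts of Gabra2, Gabrg1 and Gabra4 against the percentage of pairs assigned to no gene (top) and the cortical marker score in mean log2 CPM (bottom), 1 point per animal, colored by group. Gabra2 rises with the no-gene share across all animals (r = 0.75), and Gabrg1 falls with the cortical score (r = -0.69).

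Some subunits varied together from animal to animal, also in log2 CPM. Of the 21 pairs of members, Gabra4 and Gabrd, the α4 and δ subunits, had r = 0.82 over 24 animals (rho = 0.79, permutation p = 1e-05, the smallest that 100000 resamples give, adjusted p = 0.000105), and r was 0.75 without the 2 farthest libraries. Gabrb1 and Gabrg1 had r = 0.82 (rho = 0.83, permutation p = 1e-05, adjusted p = 0.000105) and 0.78 without the farthest. Within the 4 groups r lay between 0.67 and 0.94 for Gabra4 and Gabrd and between 0.51 and 0.96 for Gabrb1 and Gabrg1. Gabra2 varied with Gabrg1 (r = 0.70 and rho = 0.60, permutation p = 0.00017 and 0.00223, adjusted p = 0.00119 and 0.0156) and with Gabrb1 (r = 0.61 and rho = 0.54, permutation p = 0.00146 and 0.00677, adjusted p = 0.00766 and 0.0355), with the same sign in 4 of 4 groups. Without the 2 farthest libraries these r were 0.51 and 0.50. Gabra4 and Gabrb1, which start head to head, had r = 0.14 (rho = 0.038, permutation p = 0.519 and 0.860, adjusted p = 0.605 and 0.950). Gabrb2 had r below 0 with Gabrd (r = -0.58, rho = -0.49, adjusted permutation p = 0.0127 and 0.0675, r = -0.38 without the 2 farthest) and with Gabra4 (r = -0.56, rho = -0.41, adjusted permutation p = 0.0153 and 0.117, r = -0.42 without the 2 farthest), neither of which passed 0.05 in rho.

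The genes most like each member over the 24 animals, by Pearson's r of log2 CPM among 14313 genes with a mean of at least 100 counts, are given as a description. Gabra2 was nearest to Txlng (r = 0.95), Spopl (0.95) and Rbm39 (0.93). Gabra4 was nearest to Arpp21 (0.95), which encodes a phosphoprotein of medium spiny neurons, Dlg2 (0.94), a postsynaptic scaffold, and Paqr9 (0.94). Gabrd was nearest to Smpd3, Gmpr and Tesc (0.96, 0.96 and 0.95). The 3 genes nearest to Gabrb2 included Bend6 (0.95) and St8sia1 (0.94). Gabrg1 was nearest to Klhdc10 (0.93), B630019K06Rik (0.91) and Slc5a3 (0.91), Gabrb1 to Kctd4 (0.90), 2610301B20Rik (0.90) and Mblac2 (0.89), and Gabra5 to Syt16 (0.87), Pde1a (0.85) and Prps1 (0.82). The median r over all these genes was between -0.10 and 0.048.

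Among the other subunit genes 8 of 12 were tested in females and 1 passed, against 25.1% of all genes tested. Gabrq encodes the θ subunit. Its Con females ran from 58.5 to 229 normalized counts, with a median of 73.6, and its MSUS females from 85.9 to 682, with a median of 268. The groups overlapped and MSUS females spread widely, and the log2 fold change was 1.64 (SE 0.51, adjusted p = 0.05003, edgeR's quasi-likelihood test). Without MSUS female 5 the adjusted p was 0.104 and the log2 fold change 1.28, and with the cortical marker score as a covariate the change was 0.54 (adjusted p = 0.495, edgeR's quasi-likelihood test). The call was lost under 7 of 15 other settings, that covariate among them. These 7 include the spliced and no-gene shares as covariates and either library set alone, with fewer animals per group. Under those, 0 to 23 of all genes passed, so that the loss says little about a single gene. Others were no filter on low counts (adjusted p = 0.114) and the fit of all 24 animals (adjusted p = 0.102, edgeR's quasi-likelihood test). Gabre, the ε subunit gene, had a log2 fold change of 0.99 (SE 0.44, adjusted p = 0.138, edgeR's quasi-likelihood test) and passed with DESeq2 (adjusted p = 0.0714). Gabra3 (-0.21, adjusted p = 0.273), Gabrg3 (0.068, adjusted p = 0.614) and the little expressed Gabrr2 (0.19, adjusted p = 0.464) did not pass in edgeR's quasi-likelihood test.

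Of 19 genes that assemble, move or anchor GABA-A receptors, 6 were lower and 0 were higher in MSUS females, with a median log2 fold change of -0.050 (against -0.0027 over all genes tested, of which 11.9% were called lower). Gabarap, which carries receptors through the cell, had 4283 ± 116 normalized counts in Con and 3796 ± 81.6 in MSUS females (SD, n = 6), without overlap, and a log2 fold change of -0.17 (adjusted p = 0.00441, edgeR's quasi-likelihood test). Nlgn2, the neuroligin of inhibitory synapses, had 17565 ± 559 and 15577 ± 640.4 normalized counts (SD, n = 6), also without overlap (3.41% of all genes were lower without overlap), and a log2 fold change of -0.17 (adjusted p = 0.00998, edgeR's quasi-likelihood test). Clptm1, which limits the forward transport of the receptors, had a log2 fold change of -0.16 (adjusted p = 0.0180, edgeR's quasi-likelihood test), and Zdhhc3, Gabarapl1 and Nsf, named since the list had 6 calls, had log2 fold changes of -0.14, -0.11 and -0.27. With these offsets for GC content and length Nlgn2 was at -0.034 (adjusted p = 0.474) and Clptm1 at -0.077 (adjusted p = 0.151), whereas Gabarap kept its call in edgeR's quasi-likelihood test.

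None of 8 genes of GABA synthesis, transport and breakdown passed in females, with log2 fold changes between 0.059 and 0.23. The smallest p-values there were those of Slc6a11, an astrocyte GABA transporter (0.22, adjusted p = 0.128), Gad2, an enzyme of GABA synthesis (0.23, adjusted p = 0.344), and Slc6a13 (0.17, adjusted p = 0.379, edgeR's quasi-likelihood test). Of 5 GABA-B receptor genes 1 was lower, against 11.9% of all genes tested: Gabbr2, at -0.47 (adjusted p = 0.0896, edgeR's quasi-likelihood test). That call was lost when Con female 1, 2 or 3 or MSUS female 2, 3, 4, 5 or 6 was left out (adjusted p up to 0.176). It was also lost under 11 of 15 other settings, among them the fit of all 24 animals (adjusted p = 0.123) and the offsets (adjusted p = 0.192). With the cortical marker score as a covariate the change was -0.063 (adjusted p = 0.853, edgeR's quasi-likelihood test). Kctd12 (0.17, adjusted p = 0.110) and Kctd16 (0.046, adjusted p = 0.591) did not pass in edgeR's quasi-likelihood test. Of 5 genes of chloride transport 1 was lower, against the same 11.9% of all genes tested. It was Stk39, a kinase that regulates chloride cotransporters, at -0.17 (adjusted p = 0.0608, edgeR's quasi-likelihood test). The cotransporter genes Slc12a2 (-0.095) and Slc12a5 (-0.059) did not pass. The Stk39 call was lost without Con female 2 or MSUS female 2, 3 or 5 (adjusted p up to 0.145) and under 9 of 15 other settings, among them the offsets (adjusted p = 0.127), the fit of all 24 animals (adjusted p = 0.139) and the cortical marker score as a covariate (adjusted p = 0.514, edgeR's quasi-likelihood test). The settings that lost the Gabbr2 and Stk39 calls include the spliced and no-gene shares as covariates and either library set alone. Under those, 0 to 23 of all genes passed, so that such losses say little about a single gene. In males, between the sexes and in the interaction, no gene of these 4 lists passed.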

How the data were processed

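RNA was taken from bilateral NAc punches of 24 mice, depleted of ribosomal RNA and sequenced as stranded libraries. The authors trimmed adapters, aligned read pairs with STAR (2.6.1b) to mm10 with GENCODE M15 and deposited STAR gene counts, which are raw counts of uniquely mapped pairs. The sense-strand counts (column 4) were used here, without the rows of unassigned reads, which held 31.0 to 44.7% of unique pairs as assigned to no gene. Genes were kept by edgeR's filterByExpr (minimum count 10), normalized by TMM and tested with edgeR 4.0.16 (robust quasi-likelihood test, R 4.3.3) in each sex, between the sexes in each group, and for the interaction in all animals. P-values were adjusted by the method of Benjamini and Hochberg over all genes tested and called under 0.10. To give normalized counts, each library was scaled with its median-of-ratios factor from DESeq2 rather than with TMM. TPM used exon lengths of GENCODE M21 (GRCm38), to which 52489 of 52636 gene IDs matched, and promoters came from RefSeq (GRCm38.p6), which held 6 of the 7 genes.

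All 7 genes, every tested subunit gene, the 3 genes with the smallest p in females of each pathway list, and the 3 genes most like each member were named. Some of the genes that this rule names are not reported here. The members and lists were chosen with earlier results of these data known. Library measures were compared by exact permutation tests and correlations by 100000 permutations, two-sided (scipy 1.17.1). The alternatives were DESeq2 1.42.0, its size factors, other filters, counts without strand, a replicate block, library set, library measures as covariates (among them the spliced share in the study's library statistics), offsets for GC content and length, a fit of all animals, a threshold of 0.05, each set of 12 libraries, and leaving out each animal. Intervals are 95%, and counting error covers sampling of reads only. Tests were checked on simulated data.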

Additional observations from a re-analysis of the deposited data

Results flagged for a closer look

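Of 28 groups of 6 animals, 1 per member and group, 1 held an animal apart from the rest by Dixon's test, which chance gives in about 1 in 20 groups. Gabrb2 had 12115 normalized counts in Con female 3, and the other 5 Con females lay between 9436 and 10358. The same animal had the lowest Gabra4 (5751) and Gabrd (2602) of the Con females, and its cortical marker score of 5.73 was the highest among females. Without it the log2 fold change of Gabrb2 in females kept its direction, within the range of -0.13 to -0.05 over all animals left out.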

How the results depend on the processing

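In females 2 members were called. The count was 1 at an adjusted p of 0.05, without a filter, without strand, with the cortical score and in the fit of all 24 animals, and 0 with offsets, with the spliced share, with the no-gene share and within libraries 1 to 12 or 13 to 24. DESeq2 and at least 10 counts in every library gave 3, and leaving out 1 animal gave 1 to 3. In the other 4 comparisons the count of members was 0 under every setting run. Replicate numbers gave no pairing (correlations of same-numbered Con and MSUS females between -0.23 and 0.24, and 0 of 6 best with their own number). With a replicate block 1 member was called in females (Gabrb1 0.13, adjusted p = 0.164, edgeR's quasi-likelihood test), and 0 with the block and offsets. The block also lost the calls of Gabbr2 (adjusted p = 0.123) and Stk39 (adjusted p = 0.145) and gave one to Gabre (adjusted p = 0.0592, and 0.0850 with offsets, edgeR's quasi-likelihood test).

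Over all genes, the 5156 calls in females became 3126 at 0.05, 3667 without a filter, 6823 without strand, 3800 with the block, 1754 with block and offsets, 3351 with offsets, 1723 with the cortical score, 0 with either of the other shares, 4087 in the fit of all animals, 23 and 0 within the library sets, and 3102 to 5737 without 1 animal. Calls between Con sexes (544) ranged from 6 to 1474, those between MSUS sexes (28) from 7 to 159, and those of the interaction (0) reached 428 within libraries 13 to 24 and 3031 when 1 animal, MSUS male 1, was left out.

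Some directions turned, all for log2 fold changes that were not called except Clptm1. In females Gabrd was 0.051 with block and offsets, 0.25 with the spliced share, 0.14 with the no-gene share, 0.031 with offsets and 0.017 in libraries 1 to 12, Gabra5 was 0.12 with the spliced and 0.072 with the no-gene share, Gabra4 was -0.043 with the cortical score, and Clptm1 was 0.013 with the spliced share. In males libraries 1 to 12 gave Gabra4 0.14, Gabra5 -0.13, Gabrb2 -0.056 and Gabrd 0.065, and libraries 13 to 24 gave Gabra2 -0.081 and Gabrb1 -0.033. Between Con sexes Gabra2 was 0.0016 with block and offsets, 0.25 with the spliced share, 0.093 with the no-gene share and 0.0012 with offsets, and Gabrg1 was 0.024 with block and offsets, 0.18 with the spliced share and 0.030 with offsets. Between MSUS sexes Gabrb2 was 0.016 in libraries 1 to 12. In the interaction Gabrg1 was -0.013 with block and offsets, -0.0443 with the cortical score and -0.0437 with offsets, Gabra2 was -0.078 with the spliced and -0.022 with the no-gene share, Gabra5 0.066 and 0.087, Gabrb2 0.00076 and 0.034, and Gabrd was -0.090 with the cortical score and -0.073 in libraries 1 to 12. Leaving out 1 animal gave ranges that crossed 0 for Gabrd in females (-0.13 to 0.019), for Gabra2 (-0.012 to 0.094), Gabra4 (-0.11 to 0.012), Gabra5 (-0.037 to 0.13) and Gabrb1 (-0.018 to 0.045) in males, and for Gabrd in the interaction (-0.043 to 0.11). Gabrb1 in females lost its call without Con female 2, 3, 5 or 6 or MSUS female 2, 3, 4, 5 or 6 (0.10 to 0.16 over all 12), and Gabrg1 gained one without Con female 3 (0.52) or 4 (0.51) or MSUS female 1 (0.48). The cause was not tested.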
